A study of Mus musculus with 6 samples.

Results

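Lysosomal hydrolases, lysosomal membrane proteins and the transcription factors of the TFEB family were examined in RNA-seq libraries of BV2 cells, an immortalised mouse microglial line. The genes were a given list of 36 symbols, matched by name to the deposited count table, which lists 54532 genes, and grouped here by substrate class. Cathepsins were left out. There were 3 libraries of cells labelled SMEK1 knockdown and 3 labelled WT. SMEK1 is a regulatory subunit of protein phosphatase 4, listed as Ppp4r3a. Both groups were grown in the same medium with no labelled stimulus. The series' design text counts both as knockdown derivatives of BV2, and none of the sources used here gives what the WT cells received. Separate cultures or knockdown lines are not named for the 3 libraries of a group. The p-values therefore measure only the spread between these libraries, and other differences between the cultures cannot be told apart from the knockdown.

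A lysosome is an acidic organelle in which hydrolases take lipids, glycans and proteins apart step by step, some of them with the help of an activator protein. Loss of a single enzyme lets its substrate pile up, which is the basis of the lysosomal storage diseases, and microglia rely on these enzymes to clear engulfed material. TFEB, TFE3, MITF and TFEC form the MiT family of transcription factors. TFEB and TFE3 are held inactive in the cytoplasm by signalling of the kinase complex mTORC1, and in the nucleus they bind a short DNA element found near many lysosomal genes.

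All 36 genes passed the filter on low counts, and 22 were called (adjusted p under 0.05), 14 of them higher in knockdown cells and 8 lower. That is 61.1% of them, where 40.1% of all 12269 genes tested were called (20.5% higher and 19.6% lower), and 45.6% of those whose mean reached 10 CPM. The members were chosen with earlier results of these data known, so these shares are descriptions with no test. The changes were small: 1 member, Ids, passed 2-fold, where 9.28% of all genes were called and did so. The ranges of the groups did not overlap for 28 members, 19 with the knockdown above and 9 with it below, where the same held for 50.9% of all genes. The median log2 fold change of the members was 0.12 and that of all genes 0.01. Values are counts scaled to library size (CPM, after TMM scaling between libraries), and changes are log2 ratios of knockdown to WT with a standard error (SE). Adjusted p-values are Benjamini-Hochberg values over all tested genes from the quasi-likelihood test of edgeR. Scaling by library totals raised the median of all genes by 0.159 and moved the share of calls that were higher from 51.1% to 71.3%, and on that scale 21 members were called higher and 4 lower. The count of lower members was 5 without knockdown B, 4 without knockdown C and 5 without WT C, and the count of higher members was 9 without WT C. A number in parentheses after a left-out library or another scaling is the adjusted p without that library or on that scale. With bulk RNA, fewer cells that express a gene and less RNA per cell cannot be told apart.

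**Figure D1:**
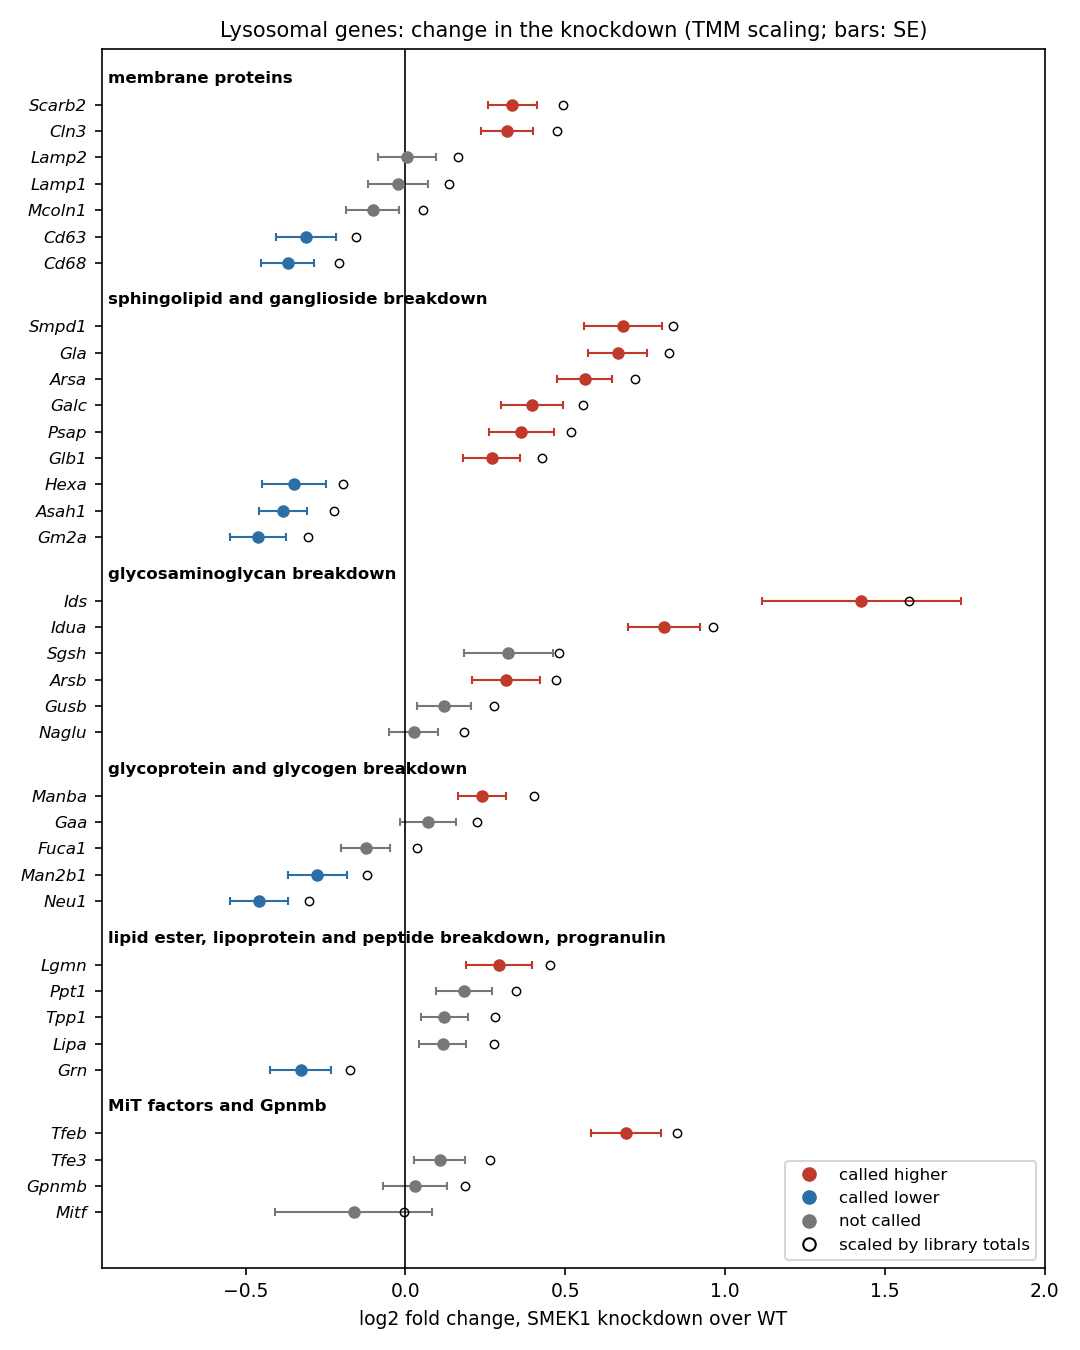
Log2 fold change of knockdown over WT for the 36 genes by class, with TMM scaling (filled points, bars are SE) and with library totals (open points). All 9 sphingolipid genes were called, 6 to the right of 0 and 3 to the left, and the open points lie to the right of the filled ones.

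Library totals were 18036591 to 21131557 counts, and Ppp4r3a, the targeted gene, was at 2.51, 5.42 and 4.25 CPM in knockdown A, B and C against 18.1, 13.5 and 15.3 in the WT libraries; it fell by 1.94 (log2; SE 0.24, adjusted p = 8.22e-05). The members took 2.22% to 2.53% of the counts in the knockdown libraries and 2.06% to 2.13% in the WT libraries. On the TMM scale their summed level was 22302 ± 2011 CPM in knockdown against 22116 ± 578 in WT libraries (SD, n = 3), and these ranges overlapped. Knockdown A was the highest knockdown library for 25 of the 36 members, and for 47.5% of the 7771 genes whose mean reached 10 CPM; its part in the spread was not tested. Of 12 markers of microglia and macrophages 9 had a mean of at least 1 CPM, and their summed level was 2964 to 3333 CPM in the knockdown and 3219 to 3631 in WT. Cx3cr1 and P2ry12 were under 1 CPM and Sall1, a factor of microglia in the brain, had 0 counts. Of the others, Csf1r (-0.73), Itgam (-0.47), Spi1 (-0.30) and Tyrobp (-0.26) were called lower and Trem2 (0.36) and Tmem119 (1.0) higher, and their part in the results below was not tested. None of the 17 markers of neurons, astrocytes, endothelium and fibroblasts reached 1 CPM. Of 5 oligodendrocyte markers Mbp and Cnp did. Mbp was at 6.95, 6.84 and 7.05 CPM in knockdown A, B and C against 2.59, 2.33 and 2.41 in the WT libraries, a called rise of 1.504 (SE 0.19, adjusted p = 8.68e-05), and Cnp had -0.24 (SE 0.10, adjusted p = 0.0833). The sum of the list, most of it Cnp, was 55.1 to 66.0 CPM in the knockdown and 59.7 to 70.1 in WT, and its part in the results below was not tested.

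The element bound by the MiT factors has the core TCACGTG. It was searched on both strands in the 250 bases before each RefSeq start (GRCm38.p6), which could be matched for 35 of the 36 members. It was present for 10 of these 35 (28.6%) and for 968 of 27025 RefSeq genes (3.58%). The RefSeq genes were taken whether or not they were expressed here, while all 36 members passed the filter on low counts. The share over the tested genes was not computed, so the members stand beside an unlike set. Of the 10, 5 were called higher (Gla, Arsa, Cln3, Glb1 and Lgmn), 0 were called lower, and Sgsh, Gaa, Naglu, Lamp1 and Mcoln1 were not called. Over all 36 members 38.9% were called higher and 22.2% lower, and over all genes tested 20.5% and 19.6%. The calls of Glb1 and Lgmn were lost when some single libraries were left out. The shorter CACGTG, which lies inside TCACGTG, was found for the same 10 members and for 6.86% of the same RefSeq genes. The related TCATGTG was found for 3 members, Gla and Scarb2 (higher) and Grn (lower), and for 3.72% of the same RefSeq genes. A match describes the letters of this window and is no evidence of binding, and these shares carry no test. The sequences below are the members with the largest called rise (Ids) and fall (Gm2a), which hold no match, and the 4 members with a match and the smallest adjusted p. Ids, Gm2a, Arsa and Glb1 are shown as 250 bases ending just before the start. Of the Gla window 120 bases lie in an untranslated region of other Gla transcripts and 77 in one of the neighbouring Hnrnph2, and of the Cln3 window 195 lie in untranslated regions of other Cln3 transcripts (GENCODE), so for these genes 30 bases around 1 match are shown. All are 5′ to 3′ on the gene's strand, with TCACGTG or its reverse complement in capitals.
Ids (chrX:70365086-70365335, minus strand): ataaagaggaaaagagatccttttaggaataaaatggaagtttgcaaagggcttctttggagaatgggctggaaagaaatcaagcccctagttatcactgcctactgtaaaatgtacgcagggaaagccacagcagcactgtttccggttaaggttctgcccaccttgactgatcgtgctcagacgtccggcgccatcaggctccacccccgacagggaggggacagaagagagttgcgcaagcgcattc
Gm2a (chr11:55097735-55097984, plus strand): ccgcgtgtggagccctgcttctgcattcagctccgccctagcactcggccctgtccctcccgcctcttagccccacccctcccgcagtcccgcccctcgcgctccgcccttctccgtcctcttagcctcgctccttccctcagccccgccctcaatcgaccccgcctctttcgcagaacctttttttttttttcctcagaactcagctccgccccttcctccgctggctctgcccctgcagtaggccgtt
Gla (chrX:134601215-134601244, minus strand): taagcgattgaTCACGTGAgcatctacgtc
Arsa (chr15:89477425-89477674, minus strand): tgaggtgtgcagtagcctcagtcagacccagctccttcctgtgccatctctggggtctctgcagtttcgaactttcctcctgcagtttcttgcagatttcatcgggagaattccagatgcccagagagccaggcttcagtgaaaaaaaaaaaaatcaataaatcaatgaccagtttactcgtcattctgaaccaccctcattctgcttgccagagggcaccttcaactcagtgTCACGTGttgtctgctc
Cln3 (chr7:126583340-126583369, minus strand): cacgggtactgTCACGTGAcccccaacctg
Glb1 (chr9:114400828-114401077, plus strand): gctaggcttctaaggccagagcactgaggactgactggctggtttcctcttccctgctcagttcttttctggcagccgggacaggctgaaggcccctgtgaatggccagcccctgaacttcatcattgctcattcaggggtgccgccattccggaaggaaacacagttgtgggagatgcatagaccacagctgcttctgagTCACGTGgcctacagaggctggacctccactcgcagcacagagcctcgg
In Gla the element occurred at a pair of places, each read on both strands, beginning 228 bases (shown) and 195 bases before the start. In Cln3 it began 149 and 122 (shown) bases before the start, in Glb1 49 and in Arsa 17.

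**Figure D2:**
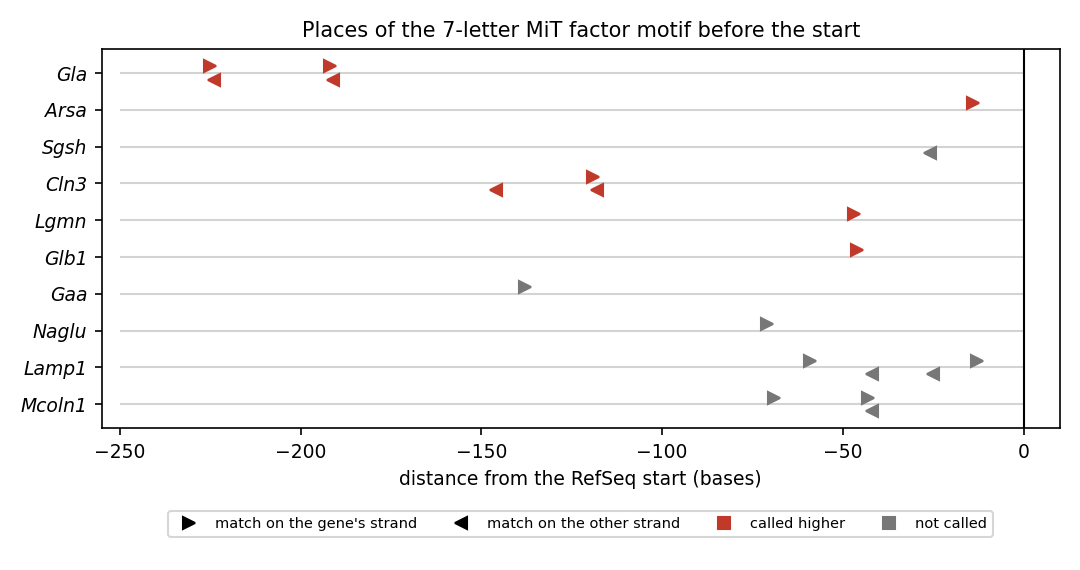
Places of TCACGTG in the 250 bases before the start of the 10 members that hold it, sorted by fold change, with right-pointing marks for the gene's strand and left-pointing marks for the other strand. Lamp1, with matches at 4 places within 62 bases of the start, was not called. Gla, with a pair of places farther away, each matched on both strands, was called higher.

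Enzymes of sphingolipid and ganglioside breakdown were all called, in both directions: 6 of 9 were higher and 3 lower, with a median log2 fold change of 0.36. Of all genes tested 40.1% were called, and 45.6% of those whose mean reached 10 CPM. The smallest adjusted p was that of Gla, α-galactosidase A, which removes the outer galactose of globotriaosylceramide. Gla was at 381, 358 and 428 CPM in knockdown A, B and C and at 224, 257 and 256 CPM in WT A, B and C. It rose by 0.66 (SE 0.09, adjusted p = 0.000166), and its lowest knockdown library was well above its highest WT library. Smpd1, acid sphingomyelinase, was at 28.6, 23.9 and 29.5 CPM in the knockdown libraries against 16.9, 16.4 and 17.9 in WT, a rise of 0.68 (SE 0.12, adjusted p = 0.000936). Arsa, arylsulfatase A, which takes the sulfate from sulfatide, rose by 0.56 (SE 0.09, adjusted p = 0.000358), from 49.98, 54.4 and 52.9 CPM in WT to 84.5, 75.3 and 72.1 in the knockdown. Galc, the next enzyme on that path, which cleaves galactosylceramide, was at 46.9, 53.2 and 52.4 CPM in the knockdown against 39.8, 35.1 and 41.0 in WT. It rose by 0.40 (SE 0.10, adjusted p = 0.00684).

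Psap encodes prosaposin, the precursor of the saposins that present several of these lipids to their enzymes. It had the highest CPM of the class, at 4099, 3326 and 3316 in the knockdown and 2691, 2824 and 2843 in WT. The rise was 0.36 (SE 0.10, adjusted p = 0.0142), a call lost without WT C (adjusted p = 0.0548). Glb1, β-galactosidase, which acts on GM1 ganglioside, was at 133, 111 and 107 CPM in the knockdown libraries against 97.1, 96.6 and 96.8 in WT. It rose by 0.27 (SE 0.09, adjusted p = 0.0317), and was no longer called without any of knockdown A (0.0612), WT A (0.0558), WT B (0.0713) or WT C (0.1). It shares 165 exon bases with Tmppe on the same strand, which had 1341 counts in all against 12463 for Glb1.

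The lower genes of the class act on GM2 ganglioside and on ceramide. Gm2a encodes the activator that lifts GM2 out of the membrane for hexosaminidase A. Its level was 242, 197 and 226 CPM in knockdown libraries against 297, 314 and 305 in WT, and it fell by 0.46 (log2; SE 0.09, adjusted p = 0.00139). Hexa, which encodes a subunit of that enzyme, was at 705, 556 and 557 CPM in the knockdown libraries against 786, 773 and 755 in WT, so that knockdown A lay near the WT libraries. It fell by 0.35 (log2; SE 0.10, adjusted p = 0.0159), with the call lost without knockdown B (0.0527) or knockdown C (0.103) and with library totals (0.0927). Asah1, acid ceramidase, fell by 0.38 (log2; SE 0.07, adjusted p = 0.00168), from 196, 208 and 205 CPM in WT to 149, 163 and 155 CPM in the knockdown.

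Ratios of counts within a library, into which no scaling between libraries enters, were computed for 5 pairs of members chosen after the values were seen. The ratio of Gla to Gm2a was 1.58, 1.82 and 1.89 in the knockdown libraries against 0.753, 0.820 and 0.838 for WT. Its mean went from 0.804 ± 0.0452 to 1.76 ± 0.165 (SD, n = 3), 2.19 times higher. Since Gla was above WT and Gm2a below it in every knockdown library, the separation of the groups follows from the choice of the pair, and the ratios are descriptions with no test.

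**Figure D3:**
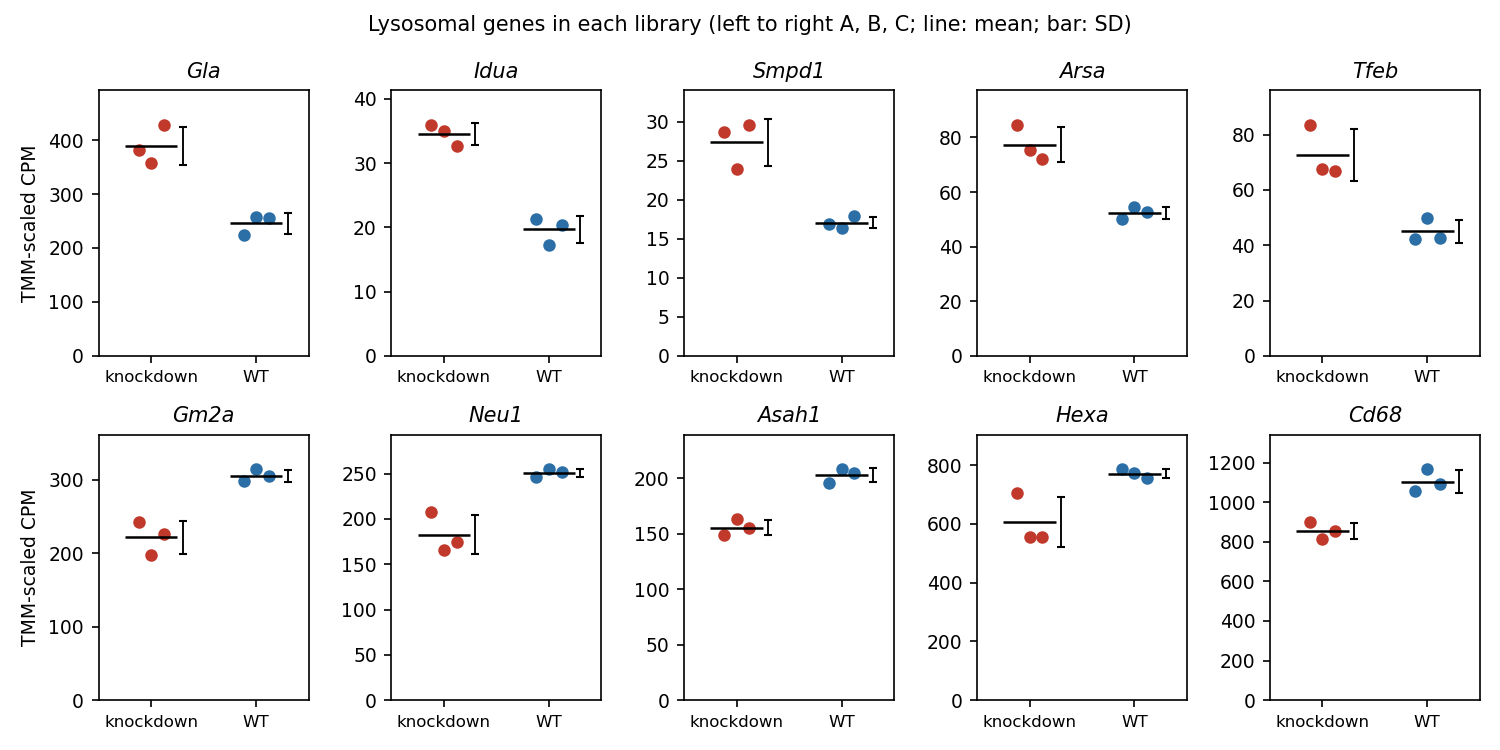
TMM-scaled CPM in each library for 10 members (points, A to C from left to right in each group; line is the mean and bar the SD). The top row shows genes called higher and the bottom row genes called lower, with no overlap between groups in any panel; Hexa in knockdown A, at 705 CPM, comes close to the WT libraries.

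Among 6 enzymes of glycosaminoglycan breakdown 3 were called higher and 0 lower, with a median of 0.32. The share called was 50%, against 40.1% of all genes tested and 45.6% of those whose mean reached 10 CPM. Idua, α-iduronidase, which cuts iduronic acid from dermatan and heparan sulfate, was at 35.9, 34.9 and 32.7 CPM in the knockdown libraries against 21.3, 17.3 and 20.4 in WT. It rose by 0.81 (SE 0.11, adjusted p = 0.00018), or 1.75-fold. Ids, iduronate sulfatase, which acts on the same chains just before Idua, had the largest fold and the lowest level of the 36. Its counts were 62, 83 and 84 in the knockdown and 38, 17 and 15 in WT, or 3.24, 3.69 and 3.79 against 2.05, 1.01 and 0.883 CPM. The log2 change was 1.43 (SE 0.31, adjusted p = 0.00349), with WT A at more than the other WT libraries. Arsb, arylsulfatase B, which desulfates dermatan and chondroitin sulfate, was at 25.9, 27.6 and 27.8 CPM against 22.7, 20.4 and 22.2 CPM in WT. It rose by 0.32 (SE 0.11, adjusted p = 0.0332), with the call lost without knockdown B (0.0502), knockdown C (0.116), WT B (0.122) or WT C (0.0908).

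The other 3 enzymes of this class were not called. Sgsh, which removes sulfate from the amino group of heparan sulfate, was at 14.5 to 17.8 CPM in the knockdown, above 11.9 to 13.3 in WT, with a change of 0.32 (SE 0.14, adjusted p = 0.0849; 0.0143 with library totals). It shares 955 exon bases with Card14 on the opposite strand, whose total of 2812 counts exceeded the 1655 of Sgsh, so its level is uncertain. Naglu, a later enzyme on heparan sulfate, ran from 116 to 127 CPM in the knockdown and 112 to 123 in WT, a change of 0.03 (SE 0.08, adjusted p = 0.808). Gusb, β-glucuronidase, ran from 530 to 618 CPM in the knockdown, above its WT range of 508 to 525, with a change of 0.12 (SE 0.08, adjusted p = 0.272; 0.00644 with library totals). The ratio of Idua to Naglu counts was 0.276 to 0.301 in the knockdown libraries and 0.146 to 0.182 in the WT libraries. Idua itself shares 124 exon bases with Dgkq on the opposite strand, which had 1056 counts in all against 3228 for Idua.

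Of 5 enzymes of glycoprotein and glycogen breakdown 2 were called lower and 1 higher, with a median of -0.12. The share called was 60%, against 40.1% of all genes tested and 45.6% of those whose mean reached 10 CPM. Neu1, the sialidase that trims terminal sialic acid, was at 207, 166 and 174 CPM in the knockdown libraries against 246, 255 and 251 in WT. It fell by 0.46 (log2; SE 0.09, adjusted p = 0.00187). Man2b1, α-mannosidase, was at 278, 236 and 227 CPM against 308, 282 and 307 in WT, with the highest knockdown library just under the lowest WT library. It fell by 0.28 (log2; SE 0.09, adjusted p = 0.0313), but was not called without knockdown B (0.0966), knockdown C (0.178), WT A (0.0622) or WT C (0.114), or on library totals (0.282). Manba, β-mannosidase, which removes the β-linked mannose of the chain's core, went the other way, at 96.3, 106 and 100 CPM against 82.8, 87.9 and 85.3 in WT. The rise was 0.24 (SE 0.07, adjusted p = 0.0231), and the call was lost with knockdown C (0.0655), WT A (0.0646) or WT C (0.0905) left out. Fuca1, α-fucosidase, and Gaa, the acid α-glucosidase of glycogen, were not called. Fuca1 ran from 113 to 115 CPM in the knockdown, below 119 to 134 in WT, a change of -0.12 (SE 0.08, adjusted p = 0.22). Gaa overlapped, at 267 to 319 CPM against 262 to 289, a change of 0.07 (SE 0.09, adjusted p = 0.553).

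Enzymes of cholesteryl esters, lipidated proteins and peptides, counted with progranulin, had 1 of 5 higher and 1 lower, with a median of 0.12. Their share called, 40%, was near the 40.1% of all genes tested and below the 45.6% of those whose mean reached 10 CPM. Lgmn, legumain, an asparagine-specific protease that also processes cathepsins, was at 1644, 1356 and 1426 CPM in the knockdown libraries against 1079, 1301 and 1233 in WT. It rose by 0.29 (SE 0.10, adjusted p = 0.0382), and the call was lost without knockdown A (0.0931), knockdown C (0.0679), WT A (0.112) or WT C (0.101), or under DESeq2 size factors (0.0544). Grn, which encodes progranulin, a secreted glycoprotein that is cut into granulins in the lysosome, was at 1720, 1472 and 1408 CPM against 2002, 1886 and 1885 in WT. It fell by 0.33 (log2; SE 0.09, adjusted p = 0.0163), with the call lost without knockdown C (0.114) or WT C (0.0541) and with library totals (0.112). Progranulin and prosaposin bind each other and travel together to the lysosome. The ratio of Psap to Grn counts was 2.26 to 2.38 in the knockdown and 1.34 to 1.51 in WT. Psap was above WT and Grn below it in every knockdown library, so this separation too follows from the choice of the pair. Lipa, acid lipase, Ppt1, a thioesterase that removes palmitate from proteins, and Tpp1, a tripeptidyl peptidase, had log2 fold changes of 0.12, 0.18 and 0.12 (adjusted p = 0.225, 0.118 and 0.214). The knockdown libraries lay above the WT libraries for each of the 3, at 157 to 165 CPM against 144 to 155 for Lipa, 96.1 to 104 against 77.7 to 93.8 for Ppt1, and 326 to 349 against 299 to 319 for Tpp1, and with library totals each was called higher (adjusted p = 0.005, 0.00316 and 0.00241). Of all 12269 genes tested, 3270 had every knockdown library above every WT library, and 3893 were called higher with library totals. Ppt1 shares 129 exon bases with Cap1 on the opposite strand, which had 40700 counts in all against 10933 for Ppt1.

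Membrane proteins of the lysosome were split, with 2 of 7 higher and 2 lower and a median of -0.02. The share called was 57.1%, against 40.1% of all genes tested and 45.6% of those whose mean reached 10 CPM. Lamp1 and Lamp2, the heavily glycosylated proteins that line the membrane, had overlapping groups. Lamp1 was at 1394, 1205 and 1239 CPM in the knockdown libraries against 1180, 1381 and 1337 in WT, a log2 change of -0.02 (SE 0.09, adjusted p = 0.868). Lamp2 was at 213, 266 and 225 CPM against 242, 230 and 230, with a log2 change of 0.0038 (SE 0.09, adjusted p = 0.978). Cd68, a LAMP family protein of macrophages and a common marker of phagocytic microglia, was at 898, 815 and 853 CPM in the knockdown libraries against 1055, 1166 and 1090 in WT. It fell by 0.37 (log2; SE 0.08, adjusted p = 0.0041). The tetraspanin Cd63 was at 1688, 1386 and 1583 CPM against 1882, 2022 and 1877, and fell by 0.31 (log2; SE 0.09, adjusted p = 0.0199). Its call was lost without knockdown B (0.0736), knockdown C (0.0688), WT B (0.0562) or WT C (0.0599) and with library totals (0.0736).

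Scarb2, a membrane protein that also acts as a sorting receptor on the way to the lysosome, was at 83.5, 80.8 and 77.8 CPM in the knockdown libraries against 61.3, 65.8 and 65.1 in WT. It rose by 0.33 (SE 0.08, adjusted p = 0.00472). The ratio of Scarb2 to Lamp1 counts was 0.0599 to 0.0671 in the knockdown libraries and 0.0476 to 0.0519 in the WT libraries. Cln3, a membrane protein whose loss causes juvenile Batten disease, was at 106, 91.4 and 92.7 CPM against 76.5, 79.2 and 77.2 in WT, a rise of 0.32 (SE 0.08, adjusted p = 0.00892). Cln3 shares 442 exon bases with Apobr on the opposite strand, which had 3315 counts in all against 10196 for Cln3. Mcoln1, the calcium channel of the lysosomal membrane, had overlapping groups (63.9 to 73.2 CPM against 70.9 to 77.3) and a log2 change of -0.10 (SE 0.08, adjusted p = 0.354).

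Of the MiT factors on the list, Tfeb was called and the others were not. Counted with Gpnmb, 1 of 4 genes (25%) was called, against 40.1% of all genes tested. Tfeb was at 83.5, 67.6 and 66.7 CPM in the knockdown libraries against 42.4, 49.9 and 42.7 in WT, with knockdown A above the rest. It rose by 0.69 (SE 0.11, adjusted p = 0.000393), or 1.61-fold. Tfe3, a close relative, was at 69.5, 66.1 and 63.5 CPM against 63.6, 59.3 and 62.0, a log2 change of 0.11 (SE 0.08, adjusted p = 0.305; 0.0208 with library totals). Mitf was low, at 4.96, 9.33 and 6.78 CPM against 9.93, 6.27 and 7.42, with overlapping groups and a log2 change of -0.16 (SE 0.25, adjusted p = 0.627). The ratio of Tfeb to Tfe3 counts was 1.02 to 1.2 in the knockdown libraries and 0.666 to 0.841 in the WT libraries. Gpnmb, a membrane glycoprotein known as a target of these factors in macrophages, was at 8327, 7086 and 6980 CPM against 7120, 7528 and 7278. Its groups overlapped, with a log2 change of 0.03 (SE 0.10, adjusted p = 0.829; 0.0458 with library totals).

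**Figure D4:**
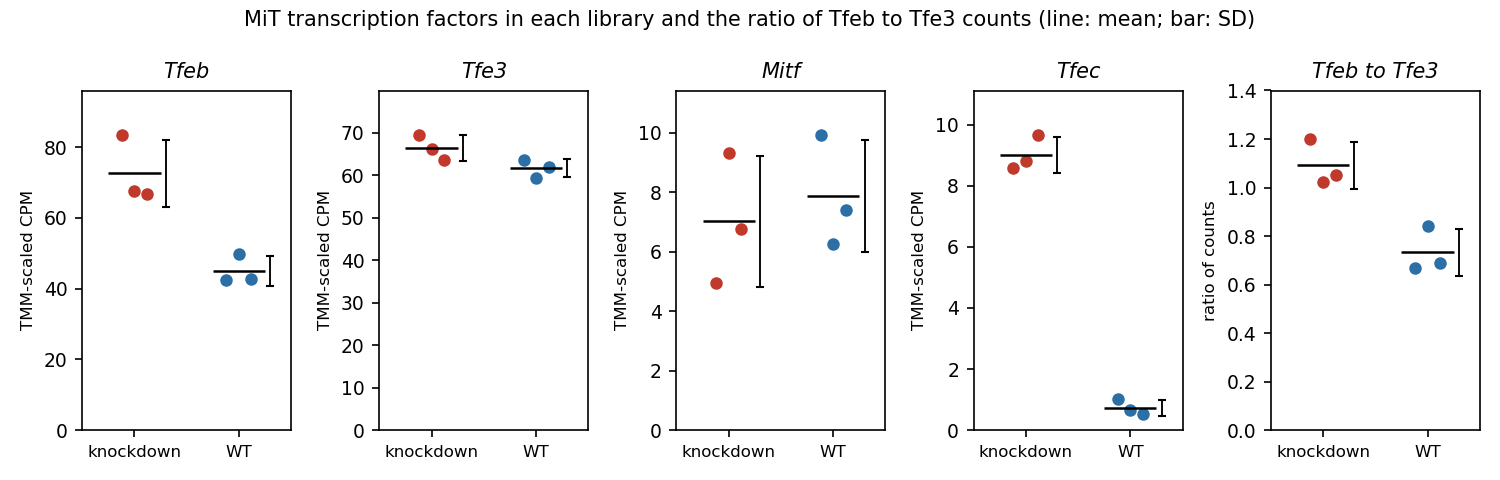
TMM-scaled CPM of the MiT factors and the ratio of Tfeb to Tfe3 counts in each library (points, A to C from left to right; line is the mean and bar the SD). Tfeb, Tfec and the ratio separate the groups, while Mitf overlaps and the knockdown libraries of Tfe3, at 63.5 to 69.5 CPM, start just under the highest WT library.

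On the scale of the authors' FPKM, which divides by the deposited gene length, the members spanned from Ids, at 0.257 ± 0.126 FPKM in WT (SD, n = 3), to Gpnmb, at 1119 ± 29.7. The order depends on these lengths, and whether they match the transcripts expressed here was not tested. Galc, with a length of 14879 bases, had 38.6 CPM and 2.59 FPKM in WT, and Idua, with 4204 bases, 19.7 CPM and 4.67 FPKM. In WT the order at the top was Gpnmb, Psap (1012 ± 28.0 FPKM), Cd68 (875 ± 43.3), Grn (552 ± 20.5), Cd63 (522 ± 21.7), Lgmn (517 ± 47.9), Lamp1 (484 ± 38.4) and Hexa (385 ± 8.30). From Grn to Lamp1 the WT libraries of each gene overlapped in range with those of the next in that order. In the knockdown Psap (1293 ± 180 FPKM) and Gpnmb (1135 ± 129) overlapped in range, followed by Cd68 (674 ± 43.3) and Lgmn (629 ± 73.6). Psap made up 16.03% of the members' summed FPKM in WT and 20.7% in the knockdown, and Cd68 13.9% and 10.8%. Mitf (1.27 ± 0.304), Galc (2.59 ± 0.211) and Sgsh (2.84 ± 0.151) came just above Ids in WT, with overlapping ranges for Galc and Sgsh.

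**Figure D5:**
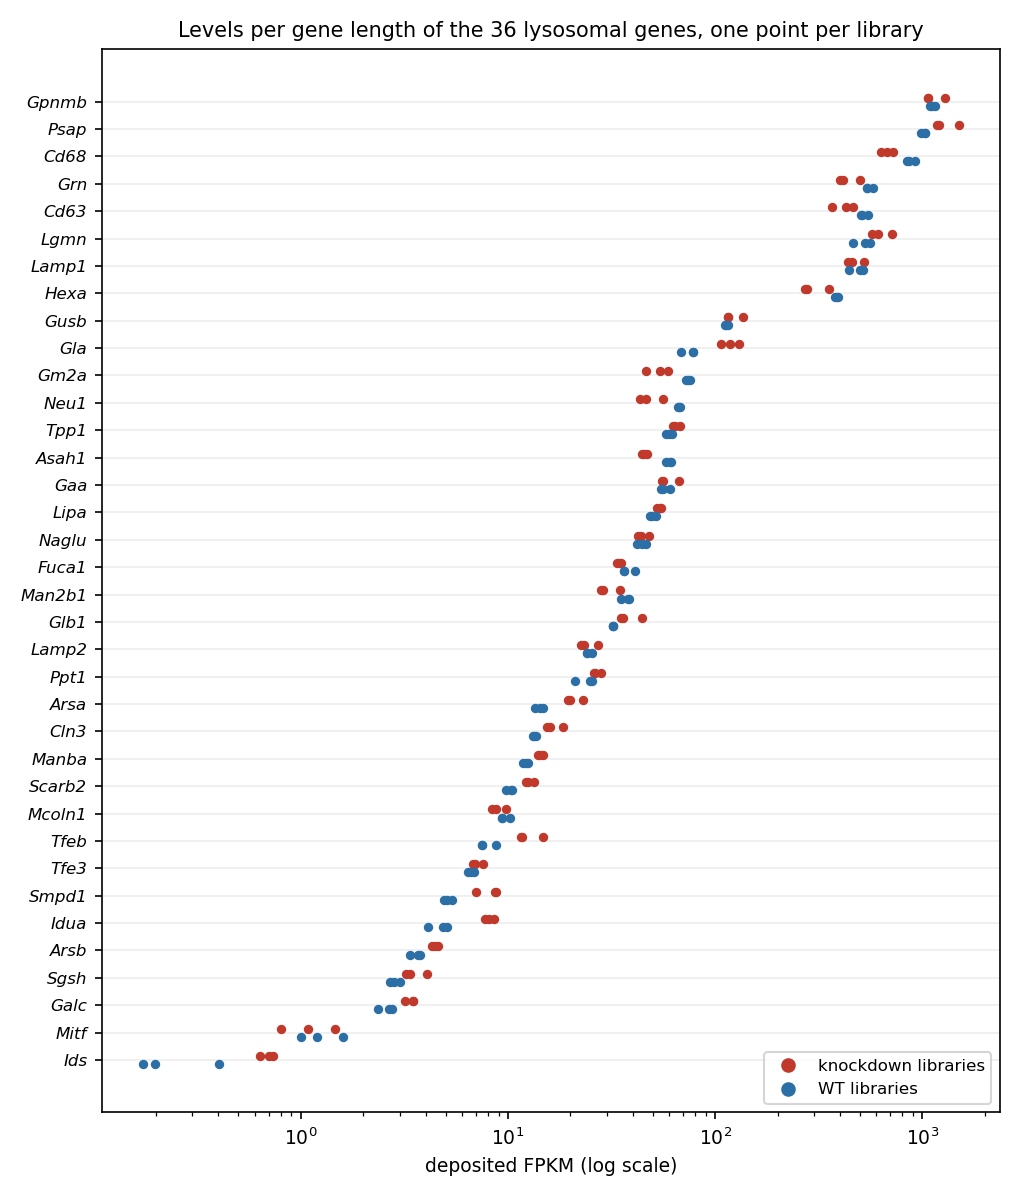
Deposited FPKM of the 36 genes in each library on a log scale (red for knockdown, blue for WT), ordered by the WT mean. Gpnmb and Psap are at the top, with group means over 1000 FPKM, and Ids is at the bottom, and the levels of most genes stay close between the groups.

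The rest of the lysosomal system was examined with 5 lists of other genes. With library totals 3893 of all 12269 genes tested were called higher, against 2515 with TMM scaling. Counts of these lists with library totals stand beside that shift. Of 27 tested hydrolases and activators outside the 36, 9 were higher and 5 lower, with a median log2 fold change of 0.03. The share called was 51.9%, against 40.1% of all genes tested and 45.6% of those whose mean reached 10 CPM. With library totals 15 were higher. Sumf1, which makes the formylglycine that every sulfatase needs for activity, was at 16.4, 15.0 and 15.1 CPM in the knockdown libraries against 52.7, 61.1 and 66.7 in WT. It fell by 1.96 (log2; SE 0.11, adjusted p = 2.09e-07), while of the 4 sulfatases among the 36, Arsa, Ids and Arsb rose and Sgsh was not called. Ggh, γ-glutamyl hydrolase, rose by 1.89 (SE 0.16, adjusted p = 3.66e-06). Nagk, a kinase that recycles N-acetylglucosamine, was counted on this list though it is not a hydrolase, and rose by 1.01 (SE 0.09, adjusted p = 6.9e-06).

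Among 24 tested membrane proteins and transporters outside the 36, 11 were higher and 4 lower, with a median of 0.20. The share called was 62.5%, against 40.1% of all genes tested and 45.6% of those whose mean reached 10 CPM. Tmem9 rose by 1.09 (SE 0.10, adjusted p = 1.15e-05) and the cation channel gene Tpcn1 rose by 0.75 (SE 0.08, adjusted p = 2.5e-05). Laptm5, a lysosomal protein of blood cells, fell by 0.68 (log2; SE 0.09, adjusted p = 9.92e-05), and the peptide transporter gene Slc15a3 fell by 0.62 (log2; SE 0.07, adjusted p = 6.13e-05). Of 17 subunits of the V-ATPase, the proton pump that acidifies the lysosome, 4 were higher and 3 lower, with a median of 0.13. Their share called, 41.2%, was near the 40.1% of all genes tested and below the 45.6% of those whose mean reached 10 CPM. Without WT B or WT C 2 were higher. With library totals 9 were higher, and 7 with a filter of at least 1 count in any library. Atp6v1a, 1 of the 4 called higher (0.39, adjusted p = 0.0414), had overlapping groups. Its call was lost without knockdown B (0.118), knockdown C (0.0659), WT B (0.135) or WT C (0.109). The membrane-sector genes Atp6v0a1 and Atp6v0c fell by 0.75 (log2; SE 0.08, adjusted p = 2.47e-05) and fell by 0.58 (SE 0.07, adjusted p = 7.53e-05). Atp6v1d, of the outer sector, rose by 0.38 (SE 0.08, adjusted p = 0.00264) and Atp6v0a2, an isoform of the same subunit as Atp6v0a1, rose by 0.43 (SE 0.10, adjusted p = 0.00418).

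Hydrolases are tagged with mannose 6-phosphate in the Golgi and sorted by receptors. Of 16 genes of this route 3 were higher and 1 lower, with a median of 0.0025. Their share called, 25%, was below the 40.1% of all genes tested and the 45.6% of those whose mean reached 10 CPM. M6pr, a receptor of the tag, rose by 0.32 (SE 0.08, adjusted p = 0.00743) and Vps29, a retromer subunit that returns receptors, rose by 0.46 (SE 0.09, adjusted p = 0.00137). Gnptab, which encodes subunits of the tagging enzyme, fell by 0.49 (log2; SE 0.14, adjusted p = 0.0146), but was not called without knockdown A (0.0568) or knockdown C (0.0661) or with library totals (0.137). The lower count was 0 without knockdown C and 2 without WT B, and with library totals 5 were higher and 0 lower.

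Of 23 tested regulators of TFEB and mTORC1 at the lysosome 3 were higher and 4 lower, with a median of 0.00077. Their share called, 30.4%, was below the 40.1% of all genes tested and the 45.6% of those whose mean reached 10 CPM. Without WT C 1 was higher, and with library totals 7 were. Tfec, the fourth MiT factor and one found mainly in macrophages and their relatives, was counted on this list though it is itself a MiT factor. It was at 8.57, 8.80 and 9.67 CPM in the knockdown libraries against 1.03, 0.656 and 0.530 in WT. Its counts were 164, 198 and 214 against 19, 11 and 9, and it rose by 3.59 (SE 0.26, adjusted p = 1.09e-06). Mtor, the kinase of the complex, fell by 0.61 (log2; SE 0.08, adjusted p = 0.000134), from 68.5, 64.2 and 68.3 CPM in WT to 43.4, 42.2 and 45.9 CPM. Tsc2, an inhibitor of mTORC1, fell by 0.42 (log2; SE 0.08, adjusted p = 0.00109). Gsk3b, a kinase that phosphorylates TFEB, rose by 0.46 (SE 0.15, adjusted p = 0.0274), but was not called without knockdown B (0.0822), WT B (0.0772) or WT C (0.0958). Gsk3b lies on chromosome 16, where tested genes with a mean CPM above 2 on the log2 scale had a median of 0.38, whose part was not tested. The V-ATPase gene Atp6v1a (0.39) and Nagpa (0.30), of the mannose 6-phosphate route, were called higher and lie on chromosome 16 too.

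Members lie on 15 chromosomes, with 6 on chromosome 11 and 4 on each of chromosome 8 and the X chromosome. Medians per chromosome were taken over tested genes whose mean CPM was above 2 on the log2 scale. On these 15 chromosomes they ran from -0.16 on chromosome 19, which holds Lipa, to 0.10 on chromosome 5, which holds Idua, Gusb and Scarb2. On chromosome 9 Hexa fell and Glb1 rose, on chromosome 10 Cd63 fell and Psap rose, and on chromosome 17 Neu1 fell and Tfeb rose. On chromosome 11, from 55098115 to 55113029 on the plus strand in GRCm38, lies Gm2a (ENSMUSG00000000594), which was lower, as were Cd68 and Grn, while Gaa, Naglu and Sgsh were not called. On the X chromosome Gla (ENSMUSG00000031266, 134588149 to 134601125, minus strand) and Ids (ENSMUSG00000035847, 70343069 to 70365084, minus strand) were higher, and Lamp2 and Tfe3 were not called. Tfeb (ENSMUSG00000023990) lies on chromosome 17 from 47737030 to 47792419 on the plus strand, and Idua (ENSMUSG00000033540) on chromosome 5 from 108660331 to 108684557 on the plus strand.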

How the data were processed

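RNA of 6 BV2 libraries was sequenced by the submitters. The build was GRCm38 (mm10), per the submitters' processing notes. The aligner, the counter and its strand setting were not given in the sources used here, and overlapping genes may share reads. The authors deposited raw counts per gene and FPKM values, with gene lengths. The FPKM carry a scaling between libraries of the authors' own.

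Counts were tested in R 4.3.3 with edgeR 4.0.16 on all genes passing filterByExpr, with TMM scaling, glmQLFit and glmQLFTest without covariates, and called at an adjusted p under 0.05. SE is the size of the log2 fold change over the square root of F. At these depths 1 count stood for 0.0444 to 0.0597 CPM. Read counts carry no stated molecular identifiers. The biological coefficient of variation was 0.121. Fits were tested on simulated data first. The alternatives were other scalings and filters, DESeq2 1.42.0, limma 3.58.1 on voom values or log2(FPKM + 1 or 0.1) at a mean of at least 0.5 FPKM, a replicate block and leaving out each library.

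The 36 members and all lists were chosen with earlier results of these data known. Values are given in full for called members without overlap, for Lamp1, Lamp2, Gpnmb and the MiT factors, and for the 2 smallest adjusted p per direction of each other list, except 1 gene that is not reported here. Promoter letters come from RefSeq, exons from GENCODE M21. Of 43 promoters checked, the last bases of 41 were found near the start of a transcript of the same gene, which gives their direction.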

Additional observations from a re-analysis of the deposited data

How the results depend on the processing

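Of 22 called members, 9 higher (Arsa, Cln3, Galc, Gla, Ids, Idua, Scarb2, Smpd1 and Tfeb) and 4 lower (Asah1, Cd68, Gm2a and Neu1) kept their call and direction under every alternative that could test them, out of 16. Ids, with a mean under 0.5 FPKM, was not tested on FPKM. The other 9 lost their call under at least 1 alternative, and no called member changed direction. With library totals 21 members were higher and 4 lower, and over all genes 3893 were higher and 1568 lower, against 2515 and 2403 with TMM; on that scale Lamp1, Mcoln1 and Fuca1, none of them called, had values above 0 (0.14, 0.05 and 0.04). DESeq2, limma-voom and both other filters gave 14 and 8 members, and limma on FPKM gave 11 and 7, where Glb1, Lgmn and Man2b1 were lost. Leaving out each library gave 9 to 13 higher and 4 to 8 lower members. With the replicate block 9 members were higher and 5 lower and 3326 genes were called in place of 4918. But deviations of libraries with the same letter correlated at -0.44 (A), -0.41 (B) and -0.004 (C), so the letters do not pair them. No library correlated best with the other of its own letter. The largest correlations were 0.49 for knockdown B with WT A and 0.36 for knockdown A with WT B, and their source was not tested. Depth limits Ids and Mitf most, with 15 to 84 and 95 to 210 counts per library.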
